A study of Mus musculus with 2 samples.

Results

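The Hox genes of the mouse lie in 4 clusters, and 36 of the 57220 CTCF peaks called in newborn liver had their summit in or beside them. A peak was counted where its summit, the base of highest signal, lay in or between the 38 member genes or within 50 kb outside the outermost members of a cluster. The assay was CTCF ChIP-seq, which sequences the DNA bound by the protein CTCF, on liver of mice of the strain B6NCrl at postnatal day 0. There was 1 group with 2 replicates and no treatment, and the antibody was directed against CTCF. Per the labels, the tissue was pulverized livers pooled over several dissections, the sex was not collected, and the biosample and donor labels of the replicates are identical, so differences between the replicates may be technical only. Signal is the value the authors deposited for each peak; its scale is not given in the sources used here and no read counts were used, so the depth behind each peak is unknown.

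Hox genes encode homeodomain transcription factors that give cells along the head-to-tail axis their position. Within each cluster the genes listed here are transcribed in the same direction, and paralogs (genes of the same number in different clusters) keep the same order, from the 5' genes of high number, used in posterior parts of the body, to the 3' genes of low number, used in anterior parts. CTCF, a protein with many zinc fingers, reads a motif that has a direction on the DNA, and together with cohesin it anchors chromatin loops, preferably between motifs that point towards each other. In mouse motor neurons, CTCF sites between Hoxa5 and Hoxa6 and between Hoxa7 and Hoxa9 have been studied as borders between active and silent chromatin. HoxA and HoxB genes are also known from blood-forming cells, which the liver still houses at birth.

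The 10 sequences below carry the best CTCF core under the peaks between paralogous genes that recurred in 3 or 4 clusters. Of the pair of peaks between Hoxd11 and Hoxd10 the stronger is shown. Each is 30 bases of GRCm38 (mm10), 5' to 3' on the strand of the core, and the capitals mark the 14-base CTCF core, looked for in either strand up to 50 bp from the summit.
Hoxa9 to Hoxa7, chr6:52221799-52221828, minus strand: agaaaattCCAGGAGATGGCAGtgtggctc
Hoxb9 to Hoxb8, chr11:96278940-96278969, plus strand: cacagtggCCGCTAGATGGCATccttgctc
Hoxc9 to Hoxc8, chr15:102987585-102987614, plus strand: acaagtgaACGCGAGGTGGCGCtgttgctc
Hoxd9 to Hoxd8, chr2:74702387-74702416, plus strand: gcatttggCCACTAGAGAGCGCtgttgctc
Hoxa6 to Hoxa5, chr6:52204649-52204678, minus strand: cccagtctCCAGCGGGTGGCGCtcgagtcc
Hoxb6 to Hoxb5, chr11:96303237-96303266, plus strand: gtcaatcgCCGGGAGGTGGCGCgctctgct
Hoxc6 to Hoxc5, chr15:103013694-103013723, plus strand: ccgagtcgGCACCAGGTGTCGCtgtgagct
Hoxa11 to Hoxa10, chr6:52240531-52240560, minus strand: cgcagccgCCACGAGATGGCGCactcccga
Hoxc11 to Hoxc10, chr15:102966564-102966593, plus strand: cgaggcagCTGCTAGGTGGCGCtgttactc
Hoxd11 to Hoxd10, chr2:74686472-74686501, plus strand: ttctacagCCACACGAGGGCGCgctcatgt

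HoxA (chr6:52162417-52260880, minus strand, 10 members) held 6 peaks inside the cluster and 2 in its flanks. HoxB (chr11:96194316-96368256, plus strand, 10 members) held 10 inside and 4 in its flanks. HoxC (chr15:102921103-103036852, plus strand, 9 members) held 4 inside and 1 in its flanks. HoxD (chr2:74668310-74765142, plus strand, 9 members) held 6 inside and 3 in its flanks. HoxB had the most peaks and is also the longest cluster, at 173.9 kb against 98.5 kb for HoxA, 115.8 kb for HoxC and 96.8 kb for HoxD. Per length, the regions with flanks held 40.3 peaks per Mb in HoxA, 51.1 in HoxB, 23.2 in HoxC and 45.7 in HoxD, against 20.99 over all chromosomes. Their own chromosomes held 21.4 peaks per Mb (chromosome 6), 35.9 (chromosome 11), 22.9 (chromosome 15) and 24.2 (chromosome 2), so with its flanks the HoxC region lay next to the level of its chromosome and the other 3 regions lay above theirs. Inside the clusters alone the densities were 60.9 peaks per Mb in HoxA, 57.5 in HoxB, 34.6 in HoxC and 62.0 in HoxD, so all 4 lay above their chromosomes and the order of HoxA, HoxB and HoxD changed. Next, only peaks at or above the list median were counted. The regions with flanks then held 40.3 per Mb in HoxA, 32.9 in HoxB, 13.9 in HoxC and 25.4 in HoxD. HoxC was the lowest in each of these counts. The densities given above for the chromosomes count all 57197 peaks, of which 28599 were at or above the median. They are therefore no reference for the densities of the stronger peaks. Repeat-masked bases made up 13.4% of HoxA, 24.6% of HoxB, 15.9% of HoxC and 14.4% of HoxD, against 36.4% of the genome, and the part of this difference in the peak densities was not tested. With 1 group of samples, no test between clusters was made, and all comparisons between them are descriptions.

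Neighbouring summits were closest in HoxD, with a median spacing of 7.30 kb, and farthest apart in HoxC, with 24.6 kb. The spacing was 13.6 kb in HoxA and 15.8 kb in HoxB, and over all 4 regions it was 13.4 kb, against 14.8 kb over all peaks. Among peaks at or above the list median the HoxD spacing was 13.4 kb, next to 13.6 kb in HoxA, so the closer HoxD spacing rests on its weaker peaks. Between the summits of the HoxD region the distances ran up to 13.5 kb, whereas the 4 distances of the HoxC region ran from 21.02 to 64.2 kb. The 64.2 kb end at a flank peak of 25.2 that is missing from the conservative list. Distances that cross the edge of a region were left out, such as the 248.6 kb 3' of the last HoxD peak. The value over all peaks has no such cut, so the 2 are not fully alike.

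Hox peaks had a median signal of 154.8, against 71.2 over all peaks, and 25 of the 36 were at or above that list median. The medians were 175.8 in HoxA, 160.0 in HoxB, 153.0 in HoxC and 88.5 in HoxD. All 8 HoxA peaks exceeded the list median, with signals from 101.2 to 377.3. The other clusters mixed strong and weak peaks, with ranges of 21.9 to 260.8 in HoxB, 25.2 to 314.7 in HoxC and 31.4 to 273.4 in HoxD. Without the flanks the HoxD median was 142.3, and the 3 flank peaks next to Evx2 had 61.4, 64.9 and 118.3. With flanks of 100 kb the medians were 1.17 times the list median in HoxC and 0.912 times in HoxD, against 2.15 and 1.24 times with flanks of 50 kb. Among peaks at or above the list median alone, the medians of the 4 Hox regions were 0.939 to 1.06 times that of all such peaks, so the strong Hox peaks lay close in level to strong peaks elsewhere.

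**Figure D1:**
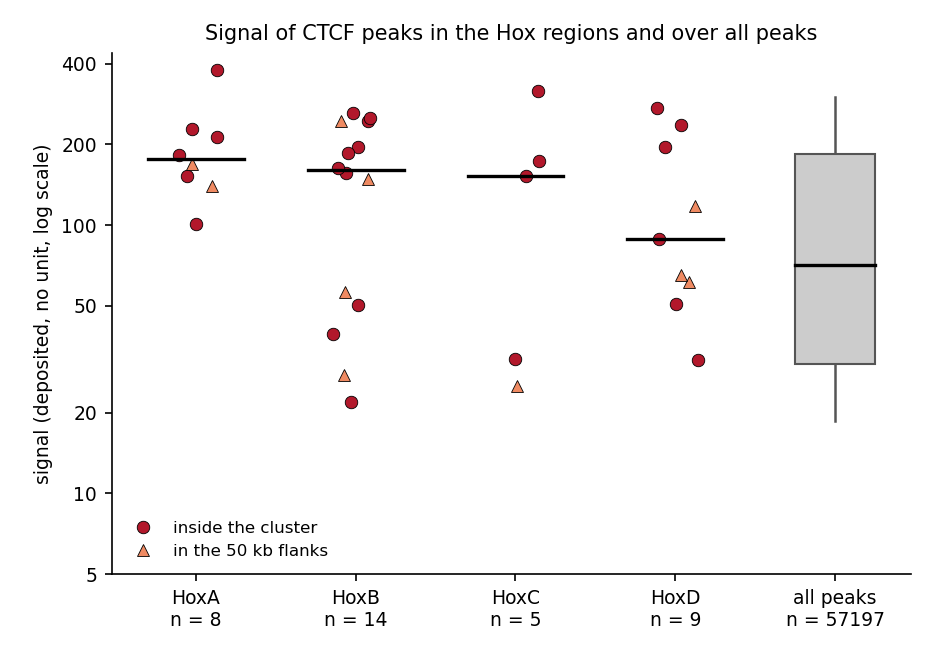
Signal of each CTCF peak in the 4 Hox regions (points; circles inside the cluster, triangles in the 50 kb flanks) and over all 57197 peaks on assembled chromosomes (box, quartiles; line, the 10th to the 90th percentile), on a log axis with the deposited unitless signal. Black bars are medians: 175.8, 160.0, 153.0 and 88.5 in HoxA to HoxD and 71.2 over all peaks, and the HoxB, HoxC and HoxD points spread over more of the axis than those of HoxA.

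**Figure D2:**
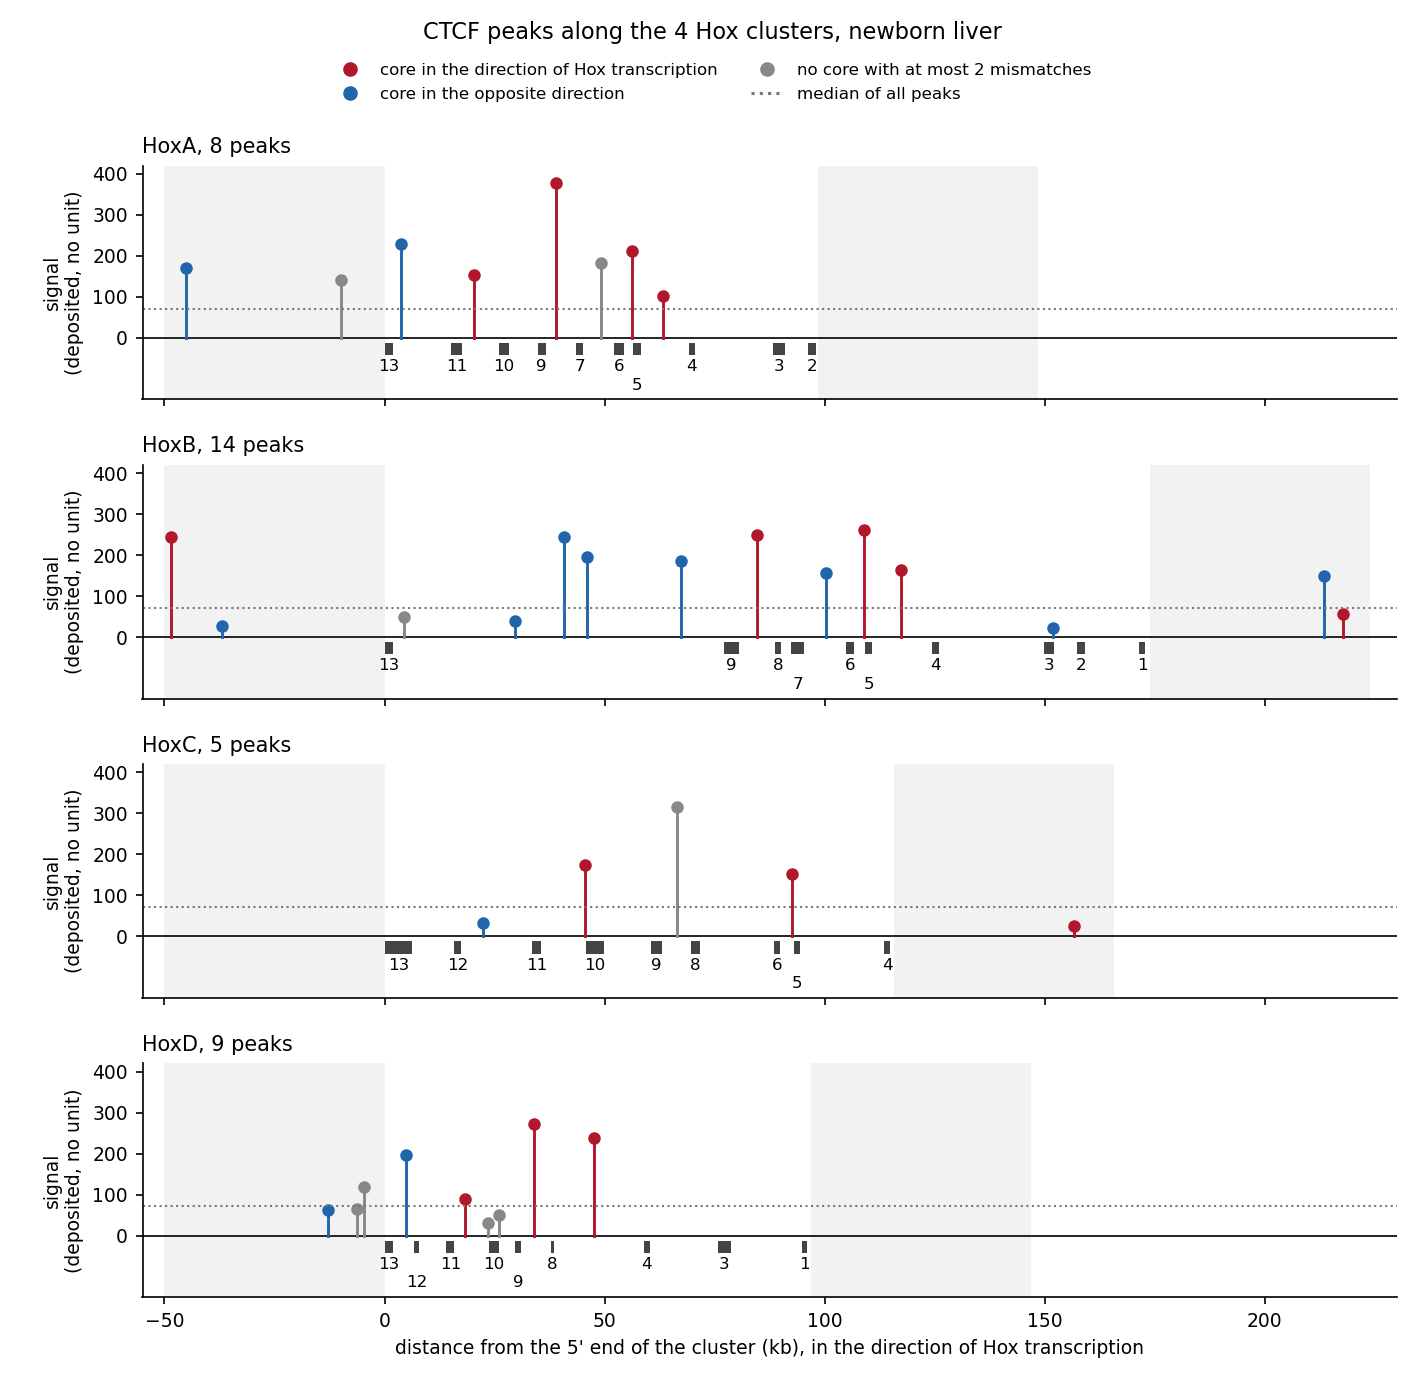
CTCF peaks along each Hox cluster, with the distance in kb from its 5' end in the direction of Hox transcription on the x axis and the deposited signal on the y axis. Black blocks are principal coding sequences with their paralog number, grey areas the 50 kb flanks, and colours the direction of the CTCF core; 20 of the 25 peaks at or above the median of all peaks lie inside the clusters and 5 in the flanks, and the stretch from gene 3 to the 3' end of the cluster holds 1 weak peak in HoxB and none in HoxA and HoxD.

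The clearest shared position was the interval between the paralog 9 gene and its 3' neighbour, which held exactly 1 peak in each of the 4 clusters. The site between Hoxa9 and Hoxa7 had a signal of 377.3, with 197.2 in replicate 1 and 180.9 in replicate 2, and was the strongest Hox peak, at rank 2217 of all peaks. It lies in an exon of an untranslated region of Hoxa7, 40 bp from the most 5' annotated start of that gene, which acts in the patterning of the trunk. The site between Hoxc9 and Hoxc8, genes that set apart thoracic and forelimb levels of the spinal cord, had 314.7, with 165.6 and 149.7 in the replicates. The site between Hoxd9 and Hoxd8 had 273.4, with 139.0 and 134.4 in the replicates. These 3 peaks were the strongest of their clusters. The HoxB site between Hoxb9 and Hoxb8, a gene known from myeloid progenitors, had 249.6, with 127.6 and 122.5 in the replicates, and was the second of its cluster. The 4 signals lay between 249.6 and 377.3, and replicate 1 over replicate 2 ran from 1.03 to 1.11 among them.

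The interval between the paralog 6 and 5 genes held 1 peak in each of the 3 clusters that have both genes, close to the start of the paralog 5 gene. The HoxB peak was the strongest of its cluster, with 260.8, and 131.2 and 128.0 in the replicates, 79 bp from the Hoxb5 start. The HoxA peak had 212.5, with 115.8 and 97.2 in the replicates, and also lay 79 bp from the start of Hoxa5, a gene needed for the formation of lung and airways. The HoxC peak had 153.0, with 82.7 and 67.7 in the replicates, 116 bp from a Hoxc5 start. Their distances from the first base of the coding sequence were 0.316 kb for Hoxa5, 0.357 kb for Hoxb5 and 0.383 kb for Hoxc5, so the 3 sites lay at nearly the same place relative to the gene.

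Between the paralog 11 and 10 genes, HoxA, HoxC and HoxD held peaks, and HoxB has neither gene. The HoxC peak had 173.4, with 86.1 and 87.6 in the replicates, 213 bp from the start of Hoxc10, a gene of the lumbar spinal cord and hindlimb. The HoxA peak had 152.4, with 67.5 and 82.6 in the replicates, in an untranslated exon of Hoxa10 and 246 bp from one of its starts; Hoxa10 patterns the lumbar skeleton and the uterus. HoxD held a pair there, with 88.5 (43.7 and 45.4 in the replicates) in a noncoding exon of Hoxd11, and 31.4 (13.1 and 18.3) at 128 bp from the Hoxd10 start. The HoxD pair was thus weaker than the other clusters' peaks at this position, and the peak nearest the Hoxd10 start lay below the list median.

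Other recurrent positions were fewer. Between the paralog 7 and 6 genes, HoxA had a peak of 182.3 and HoxB one of 156.7. Between the paralog 5 and 4 genes, HoxA had a peak of 101.2 and HoxB one of 163.4, while HoxC had none. HoxD has no gene numbered 7, 6 or 5, and its 20.5 kb between Hoxd8 and Hoxd4 held 1 peak of 237.0 (117.7 and 118.9 in the replicates), in a noncoding exon of Hoxd3os1 and 62 bp from its start. At the 5' end, peaks of 228.1 between Hoxa13 and Hoxa11 and of 196.2 between Hoxd13 and Hoxd12 stood 3' of the paralog 13 genes, which pattern digits and genitalia. HoxB carries 75.3 kb between Hoxb13 and Hoxb9 without another member, and 5 peaks lay there, of 50.2, 39.2, 244.6, 195.9 and 185.9 from 5' to 3'. The HoxC interval between Hoxc12 and Hoxc11, where the antisense RNA gene Hotair lies, had a single peak of 31.7, with 13.96 and 17.7 in the replicates. The intervals between the paralog 10 and 9 genes had no summit in any of the 3 clusters that have both genes. In HoxD, however, a peak of 50.9 (29.3 and 20.8 in the replicates) had its summit in a coding exon of Hoxd10. It reached just past the end of that coding sequence, on the side of Hoxd9.

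**Figure D3:**
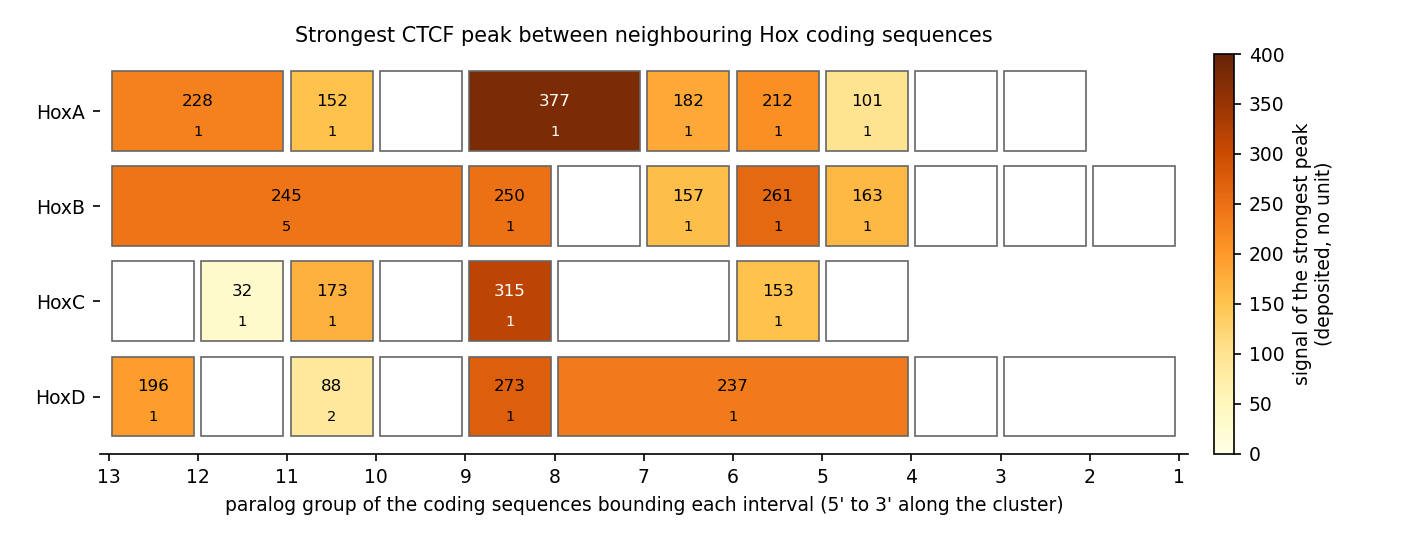
Strongest CTCF peak in each of the 34 intervals between neighbouring Hox coding sequences; rows are clusters, the x axis gives the paralog numbers that bound an interval, colour and the upper number give the deposited signal, the lower number the count of peaks, and white boxes held no peak. The interval 3' of gene 9 is filled in all 4 rows (377, 250, 315 and 273), and every box 3' of gene 4 is white.

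In all, 19 of the 34 intervals between neighbouring coding sequences held a peak, 17 of them exactly 1, and 15 held none. Filled intervals had a median length of 8.11 kb, against 10.6 kb for empty intervals, but within HoxA (7.76 against 6.41 kb) and HoxB (9.55 against 8.81 kb) the filled ones were longer, and the longest of all, between Hoxb13 and Hoxb9, was filled. None of the 7 intervals 3' of a paralog 4 gene held a peak. The sole peak among the anterior genes (paralog groups 1 to 3) lay in a coding exon of Hoxb3, had a signal of 21.9, with 6.38 and 15.6 in the replicates, and was missing from the conservative list. Anterior genes thus had 1 peak in 86.0 kb, or 1.16 per 100 kb, central genes (groups 4 to 8) had 11 peaks at 6.18 per 100 kb, and posterior genes (groups 9 to 13) had 14 at 6.34 per 100 kb. The median signal was 212.5 for central and 162.9 for posterior peaks. It was also higher for central peaks within HoxB, HoxC and HoxD, whereas in HoxA it was 182.3 for central and 228.1 for posterior peaks. Peaks were given to the gene whose coding sequence starts nearest. The strongest HoxA peak, 3' of Hoxa9, counts as posterior by a narrow margin, 4.29 kb from Hoxa9 against 4.41 kb from Hoxa7. The peaks 3' of the paralog 9 genes in HoxB, HoxC and HoxD count as central.

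The 3' ends of the clusters opened into long stretches without a peak. In HoxD, 248.6 kb separated the peak 3' of Hoxd8 from the next, a span that includes the coding starts of Hoxd4, Hoxd3 and Hoxd1 and the gene Mtx2, and 2.72% of all distances between neighbouring peaks were longer. In HoxA the stretch from the peak between Hoxa5 and Hoxa4 was 111.2 kb, with 7.73% of distances longer, and it includes the coding starts of Hoxa4, Hoxa3 and Hoxa2. HoxC had 64.2 kb, with 14.7% of distances longer, and HoxB 61.7 kb from its weak Hoxb3 peak, with 15.4% longer. Each stretch was picked because it spans the 3' end of a cluster, and longer distances are more likely to span a given place. The percentages therefore do not measure how unusual the stretches are. The replicate lists, which run to 300000 weak calls each, held nothing above a signal of 7.61 in these 4 stretches. The 5' end of HoxC was also empty, with 135.9 kb from the weak peak between Hoxc12 and Hoxc11 to the next peak outside, whereas at the 5' ends of HoxA, HoxB and HoxD the next peak followed after 13.6, 41.4 and 9.42 kb.

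The direction of the core changed along the clusters. The best core of all 7 peaks between a paralog 13 gene and its next neighbour pointed against Hox transcription. Of these, 5 lay in the single interval between Hoxb13 and Hoxb9, 1 in HoxA and 1 in HoxD. The best cores of the 4 peaks 3' of the paralog 9 genes, of the 3 peaks between the paralog 6 and 5 genes and of the 4 peaks between the paralog 11 and 10 genes all pointed with it. The best cores of both peaks between the paralog 7 and 6 genes pointed against it, as did that of the peak within Hoxd10. Some of these best cores had 3 mismatches, so their direction is less certain. They were those of the peak of 50.2 next to Hoxb13, of Hoxc9 to Hoxc8 and of Hoxa7 to Hoxa6. The weaker peak between Hoxd11 and Hoxd10 and the peak within Hoxd10 also had 3. Among cores with at most 2 mismatches, 8 of 9 in the central zone and 4 of 11 in the posterior zone pointed with transcription. All 4 posterior cores of HoxB, which lie in the single interval between Hoxb13 and Hoxb9, pointed against it, and in the other 3 clusters 4 of 7 pointed with it. The Hoxb3 core pointed against it. In the 5' flanks 1 of 4 and in the 3' flanks 2 of 3 such cores pointed with transcription. Inside the clusters, neighbouring cores with at most 2 mismatches formed 10 tandem, 5 divergent and 2 convergent pairs, where convergent cores face each other. Both convergent pairs lay in HoxB. With best cores of 3 mismatches included, HoxA and HoxD held facing cores too. In HoxA these were the Hoxa9 to Hoxa7 and Hoxa7 to Hoxa6 cores. In HoxD they were those of the weaker peak between Hoxd11 and Hoxd10 and of the peak within Hoxd10. These counts are small, and the 4 clusters arose by duplication from an ancestral cluster, so the counts are given without a test.

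Of the 38 member genes, 7 had a peak within 1 kb of an annotated transcript start (18.4%), against 36.2% of 21938 protein-coding genes. They were Hoxa5, Hoxa7, Hoxa10, Hoxb5, Hoxc5, Hoxc10 and Hoxd10, with signals from 31.4 to 377.3. Central genes gave 4 of them and posterior genes 3, and no gene of groups 1 to 3 was among them. Within 5 kb the count was 25 of 38 (65.8%), against 56.3% of protein-coding genes. The 18 genes added at 5 kb were Hoxa3, Hoxa6, Hoxa9, Hoxa13, Hoxb2, Hoxb3, Hoxb6, Hoxb8, Hoxb13, Hoxc6, Hoxc8, Hoxd3, Hoxd4, Hoxd8, Hoxd9, Hoxd11, Hoxd12 and Hoxd13. The other 13 were Hoxa2, Hoxa4, Hoxa11, Hoxb1, Hoxb4, Hoxb7, Hoxb9, Hoxc4, Hoxc9, Hoxc11, Hoxc12, Hoxc13 and Hoxd1. Hoxd1 lay farthest, 47.0 kb from a peak, followed by Hoxa2 at 32.6 kb. Several starts of Hoxa3, Hoxd3 and Hoxd4 belong to long transcripts that begin among more 5' genes, so counted from the coding start the nearest peak was 24.8 kb from Hoxa3, 28.1 kb from Hoxd3 and 11.3 kb from Hoxd4. Counted from the 5' end of each gene alone, 21 of the 38 members had a peak within 5 kb. The share of protein-coding genes was not computed that way. Members of 1 cluster share peaks: the peak between Hoxd8 and Hoxd4, for example, is the one within 5 kb of both Hoxd3 and Hoxd4.

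Among all Hox peaks, 10 of 36 (27.8%) lay within 1 kb of the start of any transcript, noncoding ones included, against 20.6% of all peaks. Besides the 7 at member genes, these were the peaks near 9530018H14Rik between Hoxa13 and Hoxa11, near the noncoding gene Gm53 between Hoxb13 and Hoxb9, and at Hoxd3os1. Summits fell on a repeat-masked base in 3 of 36 peaks (8.33%), against 22.4% of all peaks. GC content around the summit had a median of 55.0% at Hox peaks, against 48.2% at all peaks.

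The flanks held 10 peaks, 7 on the 5' side and 3 on the 3' side. The strongest 5' flank peaks were 245.1 in HoxB, in an intron of Ttll6, 169.2 in HoxA, 7.44 kb from the homeobox gene Evx1, and 118.3 in HoxD, near its paralog Evx2. HoxC had no 5' flank peak. The 3' flanks of HoxA and HoxD were empty, HoxB had peaks of 148.1 and 56.1 there and HoxC one of 25.2. Of the listed flanking genes, 5 of the 10 found in the annotation had a peak within 1 kb of a start (Skap2, Hibadh, Ttll6, Smug1 and Lnpk), against the 36.2% of protein-coding genes. None of the 9 listed noncoding genes of the clusters did, against 14% of 11205 genes of the same noncoding types, and 2 had one within 5 kb, Hotair at 4.28 kb and Mir196a-1 at 3.43 kb, against 32.8%. Of 9 Hox cofactor genes of the PBX, MEIS and PKNOX families, which encode the homeodomain partners of Hox proteins, Meis3 (54.2) and Pknox2 (129.1) had a peak within 1 kb, or 2 of 9 against 36.2% of protein-coding genes, and 6 had one within 5 kb, against 56.3%. With so few genes in each list, these shares are not read as different from the background.

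Of the 36 Hox peaks, 36 were found in both replicate lists within 100 bp (100%), against 97.1% of all peaks, and 34 (94.4%) were in the conservative list, against 87.8%. The 2 that were not were the Hoxb3 peak and the 3' flank peak of HoxC, with 19.1 and 4.24 in the replicates. The optimal list was itself made from the lists of both replicates, which run to 300000 calls each. Finding its peaks in them is therefore not independent agreement. Replicate 1 over replicate 2 had a median ratio of 1.02 over the 36 peaks. Among the 25 peaks at or above the list median the ratio ran from 0.817 to 1.26, and over all 36 from 0.409 to 4.49. The weak peaks were thus those in which the replicates parted. Spearman's rho between the replicates was 0.963 across the 36 peaks, a description over peaks of the same 2 libraries.

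**Figure D4:**
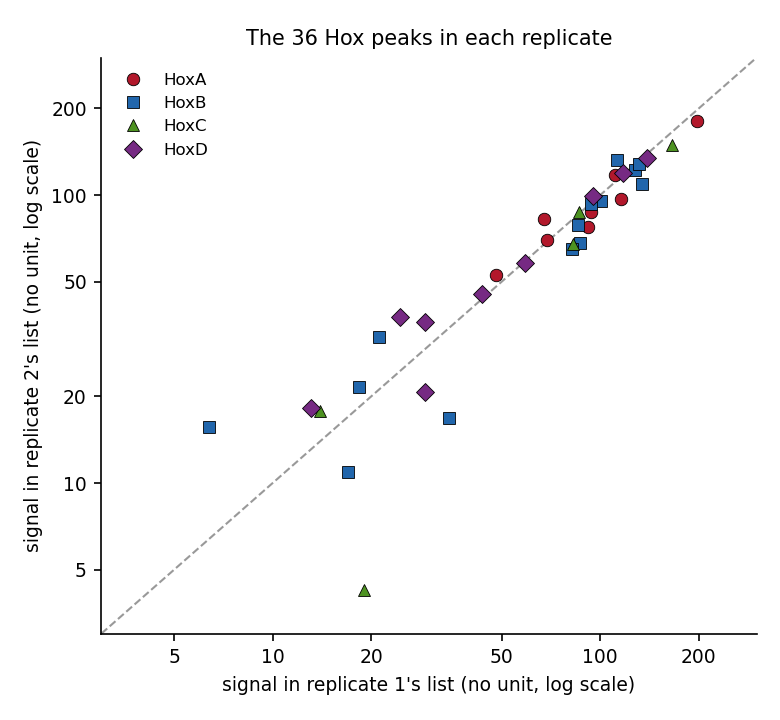
Signal of the 36 Hox peaks in the list of replicate 1 (x axis) and of replicate 2 (y axis), both unitless and on log axes, by cluster, with the line of equality. Strong peaks lie along the line, and the 3 points farthest from it are the HoxC 3' flank peak (19.1 and 4.24), the Hoxb3 peak (6.38 and 15.6) and the weak peak next to Hoxb13 (34.5 and 16.8).

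A core with at most 2 mismatches was found in 28 of the 36 Hox peaks (77.8%), against 71.2% of all peaks. None of the 36 matched the core in full, against 9.62% of all peaks. Among them 9 had 1 mismatch, 19 had 2, 7 had 3 and 1 had 4. The core searched for is a fixed pattern that allows 1 or 2 bases at each position. Mismatches count departures from this pattern and do not score the CTCF motif as a whole. Hox peaks with 2 mismatches had a median signal of 169.2, against 62.2 for all peaks with 2 mismatches. With 1 mismatch the medians were 152.4 and 118.2, and with 3 they were 64.9 and 42.2. The peak between Hoxc9 and Hoxc8 (314.7) and that between Hoxa7 and Hoxa6 (182.3) had 3 mismatches, so strong Hox peaks were not limited to close matches. At the other end, the weak Hoxb3 peak had 1 mismatch.

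**Figure D5:**
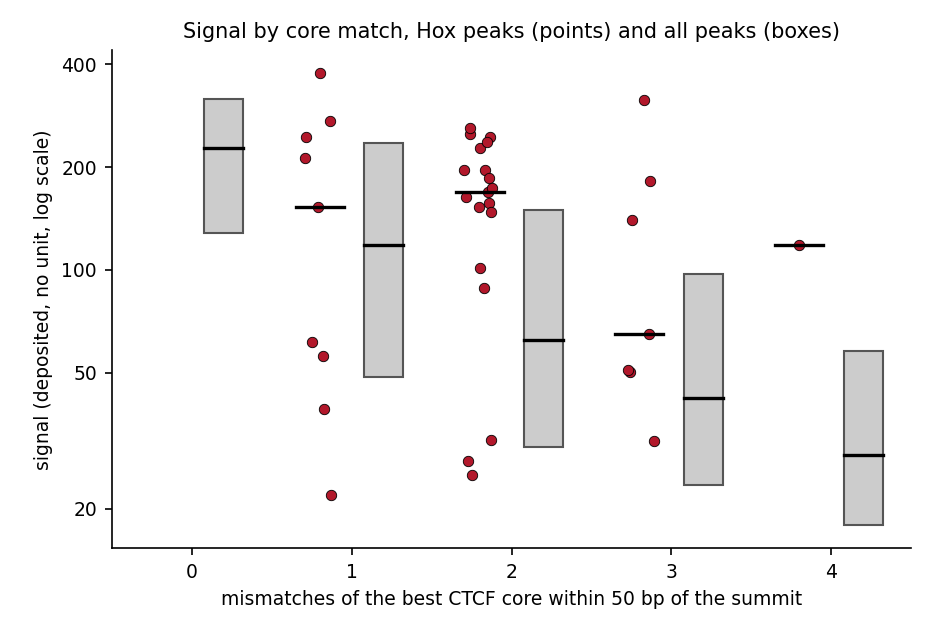
Signal by the number of mismatches of the best CTCF core within 50 bp of the summit, for the 36 Hox peaks (points, with a bar at the median) and for all peaks (boxes, quartiles with the median), on a log axis with the deposited unitless signal. Boxes step down with each mismatch, whereas the Hox median is 152.4 at 1 mismatch and 169.2 at 2, and no Hox peak has 0.

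Sites at the same paralog position were compared base by base, aligned on the core and over the 86 bases around it. The 6 pairs of sites 3' of the paralog 9 genes shared 29.1% to 40.7% of these bases, with a median of 31.4%. The 3 pairs between the paralog 6 and 5 genes shared 22.1% to 34.9%, with a median of 31.4%. The 5 pairs between the paralog 11 and 10 genes shared 20.9% to 41.9%, with a median of 25.6%. The single pairs between the paralog 5 and 4 and the paralog 7 and 6 genes shared 43.0% and 30.2%. The 422 pairs of Hox sites at different positions in different clusters shared 11.6% to 44.2%, with a median of 27.9%, so the ranges overlapped. The Hoxc9 to Hoxc8 and Hoxd9 to Hoxd8 sites printed above share, within these 30 bases, an unbroken run of 12 that spans the end of the core. A run of 13 was seen between 2 sites at different positions in different clusters, and the median run there was 4. The Hoxc9 to Hoxc8 site also shared a run of 13 with the Hoxc11 to Hoxc10 site of its own cluster.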

How the data were processed

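Per the labels, the files are peak lists on mm10. The authors deposited narrowPeak lists of each replicate, of the pooled replicates, and 2 lists, optimal and conservative, made with the irreproducible discovery rate, which keeps peaks whose rank repeats between lists. The signal of a peak is the value the authors deposited; aligner, peak caller, thresholds and depth: not given in the sources used here. No deposited q-value, score or read count was used.

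Peaks of the optimal list were placed by summit (peak start plus the deposited offset, written 1-based) against GENCODE M21 and GRCm38. Of its 57220 peaks, 57197 on assembled chromosomes served as the background. The conservative list holds 54864 peaks and is no subset of the optimal one. Lists were matched by summits within 100 bp. Intervals run between principal coding sequences. A peak's zone is that of the member whose coding sequence starts nearest, in place of the transcript start named in the design, because long Hoxa3 and Hoxc5 transcripts begin among more 5' genes. The core search was tested on simulated sequences with planted cores. Python 3.11.15, pandas 2.3.3 and pysam 0.24.0 were used.

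The members and gene lists were chosen with earlier results of these data known. Genes and peaks were named by a rule: every member, the 3 strongest peaks of each region, every peak within 1 kb of a member's start and the strongest of each flank; further peaks were named after their values were seen. As alternatives, results were recomputed on the conservative list, on the 28610 peaks at or above the list median, on the 57220 strongest of each replicate, and with other flanks, mismatches, windows and matching distances. With 2 samples of 1 group there is no comparison between groups, and no test was run.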

Additional observations from a re-analysis of the deposited data

How the results depend on the processing

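The 26 results were recomputed under the alternatives, 140 values in all, of which 103 stayed within 1.5 times (counts, densities and core directions) or within 1 SD of the values from each replicate alone, and 37 did not. This SD rests on 2 values that were also judged by it, and for HoxA spacing it was only 0.0099 kb. The split into 103 and 37 therefore does not measure how far results moved. Among peaks at or above the list median, 9 were left in HoxB, 3 in HoxC and 5 in HoxD (32.9, 13.9 and 25.4 per Mb), 9 among posterior and 0 among anterior genes, and HoxD peaks lay a median of 13.4 kb apart. The Hox medians there were 0.952 (HoxA), 1.06 (HoxB), 0.939 (HoxC) and 1.06 times (HoxD) the median of all such peaks. With the conservative list the medians were 2.28 times the list median in HoxA and 1.15 times in HoxD, and anterior genes had 0 peaks. Without flanks, HoxA had 60.9 peaks per Mb, the medians were 2.77 (HoxA), 2.45 (HoxB) and 2.00 times (HoxD) the list median, and spacing was 10.1 kb in HoxA and 8.16 kb in HoxD. With flanks of 100 kb, HoxC had 8 peaks, the medians were 2.38 (HoxA), 1.17 (HoxC) and 0.912 times (HoxD), and spacing was 15.1 kb in HoxA and 7.80 kb in HoxD. The core share was 25% with at most 1 mismatch and 97.2% with at most 3; with at most 1, 66.7% of 3 posterior cores pointed with transcription.

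With either replicate alone, the 36 peaks stayed at 36 in number, of which 35 were the same sites in each list, and the 4 sites 3' of the paralog 9 genes were kept in both. The median over the list median ran from 2.45 to 2.56 in HoxA, spacing from 13.58 to 13.60 kb in HoxA, from 11.6 to 15.8 kb in HoxB and from 19.9 to 24.6 kb in HoxC, the core share from 72.2% to 77.8%, and anterior peaks from 0 to 1. No paired analysis was possible because the series has 1 group. Depth is unknown, so no interval on a signal is given, and the cause of each move was not tested.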
